A study of Mus musculus with 6 samples.

Results

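The mitochondrial genome transcripts of cultured mouse cells labelled as female germline stem cells (FGSCs) were all 37 rows of the deposited expression table placed on chromosome MT, out of 55401 rows. They comprised 13 mRNAs for subunits of the respiratory chain, 2 rRNAs and 22 tRNAs, with 28 genes on the plus strand and 9 on the minus strand. The libraries came from C57BL/6 cells so labelled, of more than 20 passages, grown on inactivated STO fibroblast feeders with leukemia inhibitory factor, epidermal growth factor, basic fibroblast growth factor and GDNF. The control group held 3 untreated libraries and the metformin group 3 libraries from cultures given 1 μM metformin, a biguanide used against diabetes, for 24 h. Nothing in the labels says that libraries of a group came from separate cultures, so p-values measure the spread between these libraries, which may be technical.

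Mouse mitochondrial DNA is a small circle that is transcribed from both strands into long precursors. The tRNAs lie between most mRNAs and rRNAs, and cutting the precursors at the tRNAs releases the other RNAs. The mRNAs encode subunits of complexes I, III, IV and V, which carry electrons to oxygen and make ATP, and the rRNAs form the cores of the mitochondrial ribosome. All proteins that transcribe, cut, modify and translate these RNAs are encoded in the nucleus. Biguanides are known for slowing complex I.

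Levels are given in FPKM, fragments scaled to the length of the gene and to the mapped fragments of the library. This lets longer genes be compared with each other where their fragments match a single place. How fragments with several matches were handled is not given in the sources used here. The tRNAs, of 59 to 75 bases, are scaled by so short a length that few fragments make a high value. Their place beside longer genes is one of FPKM only. All 17 mitochondrial genes above 0 were whole numbers of fragments at 4 to 18 neighbouring depths per library. Their middle put the depth, the total by which FPKM was scaled, at 13404779 to 14034997 fragments. It is called mapped fragments here, though whether it counts all mapped fragments is not given in the sources used here. The 20 other members, all tRNAs, were listed at 0 in all 6 libraries. The label FGSC was checked against markers. None of 6 germ cell markers reached a mean of 1 FPKM, their summed level was 0.48 to 1.38 FPKM in control and 0.33 to 0.93 in metformin libraries, and Pou5f1, Dppa3 and Dazl were listed at 0 throughout. None of 12 fibroblast markers of the feeder reached a mean of 1 FPKM, with sums of 1.41 to 1.62 and 1.19 to 1.87 FPKM, and Lum was listed at 0. All 10 blood cell markers were above 10 FPKM, with sums of 965.8 to 994.9 FPKM in control and 937.6 to 971.1 in metformin libraries. Of these 10 markers, 3 were higher in metformin libraries without overlap (Laptm5, Coro1a and Vav1) and 3 lower (Ptprc, Lcp1 and Cpa3), beside 8.89% and 8.1% of all genes tested, and none had an adjusted p under 0.05 in limma. The marker lists were chosen with earlier results of these data known, so the levels of the blood cell list are not an independent check. The listed markers went against the label, and the cells are called here by their label. In such bulk samples, fewer cells of a type and less RNA per cell cannot be told apart. The part of the cells' identity in the values below was not tested.

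The mitochondrial genome is copied in places into nuclear chromosomes, and 42 such stretches were found in the NCBIM37 build. The longest holds 4650 aligned bases on the minus strand of chromosome 1 (chr1:24618374-24623023) and matches positions 6394 to 11042 of the mitochondrial genome at 99.96% identity. It covers the end of mt-Co1, all of mt-Co2, mt-Atp8, mt-Atp6, mt-Co3, mt-Nd3 and mt-Nd4l and the first 63.6% of mt-Nd4. The sequences at its edges are shown because the genes between them stood apart from all other mitochondrial mRNAs in level. They are printed 5′ to 3′ in the direction of the mitochondrial plus strand, with capitals for the stretch that both genomes share.
mitochondrial genome, positions 6364 to 6423: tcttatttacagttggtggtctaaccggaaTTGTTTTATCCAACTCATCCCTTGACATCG
chromosome 1, left edge: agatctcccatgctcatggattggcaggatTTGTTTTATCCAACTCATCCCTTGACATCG
mitochondrial genome, positions 11013 to 11072: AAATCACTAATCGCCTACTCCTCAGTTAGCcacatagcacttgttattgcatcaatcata
chromosome 1, right edge: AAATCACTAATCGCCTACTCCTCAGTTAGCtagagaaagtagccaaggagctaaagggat

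Between these edges the 2 genomes differed by 1 substitution and 1 gap of a base at position 9828 in mt-Tr, the arginine tRNA. The substitution, T9461C with the mitochondrial base first and the position counted along the mitochondrial genome, is base 3 of mt-Nd3, a small complex I subunit gene. It is the only difference inside a wholly copied mRNA, and is shown in capitals.
mitochondrial genome around position 9461: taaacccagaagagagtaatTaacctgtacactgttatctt
chromosome 1 copy: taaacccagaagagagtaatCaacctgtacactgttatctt
Each edge and each copy line was read from NCBIM37, whose mitochondrial gene positions were the same as in the deposited table for 37 of 37 genes.

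Transcript levels spanned more than 3 orders of magnitude among the 13 mRNAs and fell into 2 classes that followed the chromosome 1 copy. The 5 mRNAs outside the copy, mt-Nd1, mt-Nd2, mt-Nd5, mt-Nd6 and mt-Cytb, had mean levels of 888.6 to 4553 FPKM over the 6 libraries, with a median of 1717. The 6 mRNAs wholly inside it had means of 2.717 to 61.09 FPKM, with a median of 7.448, so that the median outside was 230.5-fold higher. No library of any wholly copied mRNA exceeded 69.01 FPKM, and no library of any other mRNA was below 707.06 FPKM.

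**Figure D1:**
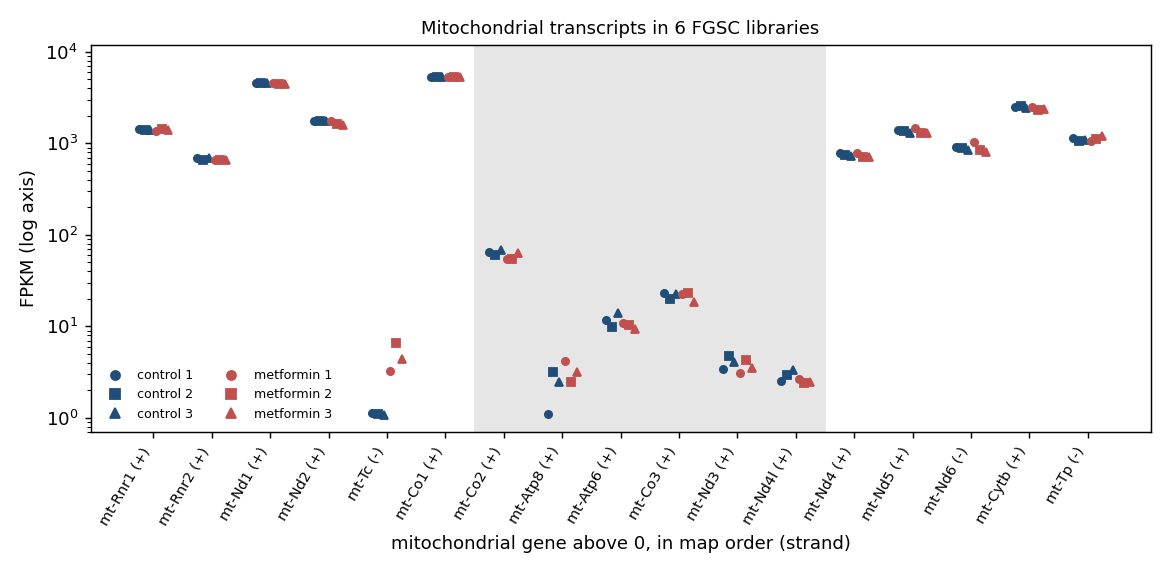
FPKM on a log axis for the 17 mitochondrial genes above 0, in map order with the strand in brackets; each point is a library, blue for control and red for metformin, and grey marks the 6 mRNAs wholly inside the chromosome 1 copy. The grey genes lie between 1.1 and 69.01 FPKM, all mRNAs and rRNAs outside the grey area lie above 658 FPKM, and mt-Tc lies between 1.08 and 6.51 FPKM.

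The order of the levels was led by mt-Co1, the catalytic core of complex IV, with 5257.56 to 5353.51 FPKM (mean 5310), the highest mean of all 55401 rows. It was followed by mt-Nd1, a membrane subunit of complex I, with 4456.92 to 4620.88 FPKM and rank 3 of the table, and by mt-Cytb, the cytochrome b of complex III, with 2307.16 to 2543.88 FPKM and rank 6. The complex I gene mt-Nd2 followed with 1601.3 to 1776.82 FPKM. These genes did not overlap with their neighbours in the order in any library.

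The 12S rRNA mt-Rnr1 (1360.03 to 1439.2 FPKM) and mt-Nd5, a proton-pumping complex I subunit (1303.55 to 1459.85 FPKM), overlapped and cannot be ordered. Below them came mt-Tp, the proline tRNA, mt-Nd6, the complex I subunit encoded on the minus strand, mt-Nd4, another pumping subunit, and the 16S rRNA mt-Rnr2, with means of 1110, 888.6, 745.1 and 670.7 FPKM and no overlap between neighbours. A gap of 10.98-fold separated mt-Rnr2 from mt-Co2, the copper-binding complex IV subunit, at 53.99 to 69.01 FPKM. The complex IV subunit mt-Co3 followed at 18.57 to 23 FPKM and the complex V subunit mt-Atp6 at 9.36 to 13.97 FPKM. The last 4 genes, mt-Nd3, mt-Tc, mt-Atp8 and mt-Nd4l, had means of 3.877, 2.908, 2.767 and 2.717 FPKM, and each overlapped with the next.

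The class of a gene was described further by the share of its 50-base windows that had an exact match elsewhere in the genome. This share was 100% for mt-Co2, mt-Atp8, mt-Atp6, mt-Co3 and mt-Nd4l, and 99% for mt-Nd3, whose 5′ end holds the substitution shown above. It was 51.1% for mt-Co1, which also matches a shorter copy on chromosome 2 of 97.362% identity, and 62.2% for mt-Nd4. Both of these partly copied genes were at high level, 5310 and 745.1 FPKM. For the other mRNAs and rRNAs the share was at most 8.3%, in mt-Nd2, and 0% in mt-Nd1, mt-Nd6, mt-Cytb and mt-Rnr1. The handling of fragments with several matches is not given in the sources used here, and its part in these levels was not tested.

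**Figure D2:**
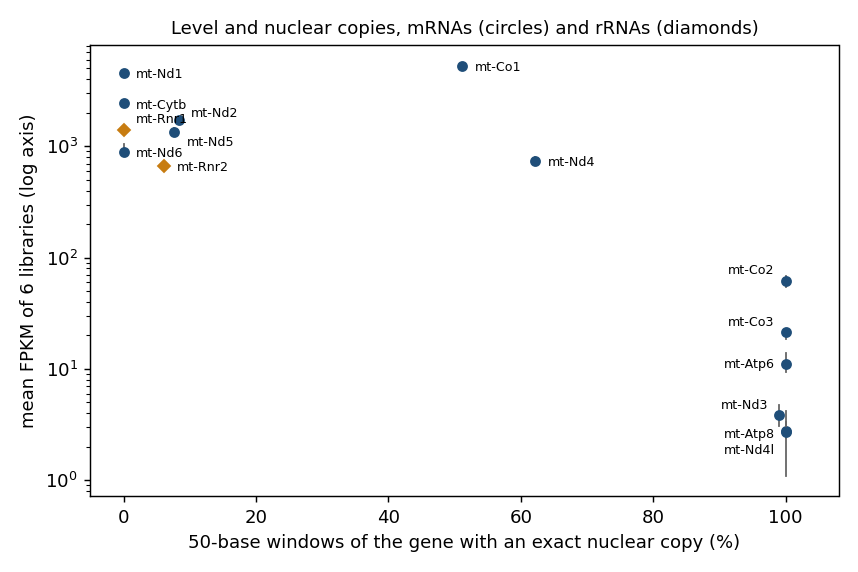
Mean FPKM of the 6 libraries on a log axis against the percentage of a gene's 50-base windows with an exact nuclear copy; circles are mRNAs, diamonds rRNAs, and lines run from the lowest to the highest library. The 6 genes at 99% or 100% have means of 2.717 to 61.09 FPKM and the 9 others have means of 670.7 to 5310 FPKM.

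The table also holds 7 minus-strand rows between 24611535 and 24616197 of chromosome 1 (GRCm38) that pair with the mitochondrial genes of the copy. For each, the position of the row's end added to the start of the gene (for mt-Co1, the start added to the end) gave the same total within 1 base, the size of the gap in the copy. The rows pair with mt-Co1, mt-Co2, mt-Atp6, mt-Co3, mt-Nd3, mt-Nd4l and mt-Nd4, and mt-Atp8 has no such row. Only the twin of mt-Nd4l has a gene symbol in the table of names, Gm10222. Together the 7 rows held 931 to 1095 fragments per library.

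The split of fragments between a gene and its twin differed among genes. For mt-Co2 the mitochondrial row held 516 to 660 fragments per library and the chromosome 1 row 271 to 319, so that the twin took 31.22% to 36.84% of the pair. For mt-Co3 the twin took 35.6% to 47.03%. The twin was ahead for mt-Atp6, where it took 62.86% to 70.86% with 176 to 263 fragments against 88 to 133 in the mitochondrial row.

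For mt-Nd3, the wholly copied mRNA that carries the substitution, the twin was 9.977-fold higher in mean FPKM. It held 150 to 220 fragments per library against 15 to 23 in the mitochondrial row, or 88.24% to 93.62% of the pair. The pair of mt-Nd4l held 20 to 36 fragments in all, of which the twin took 41.67% to 69.44%. Adding gene and twin gave 6.485 to 91.98 FPKM for these 5 pairs, beside 670.7 FPKM for the lowest other mRNA or rRNA. These sums hold only fragments listed in either row, and the part of fragments with several matches was not tested. The twins of the partly copied genes took little, 0.03832% to 0.05599% of the mt-Co1 pair and 0.331% to 0.4906% of the mt-Nd4 pair.

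**Figure D3:**
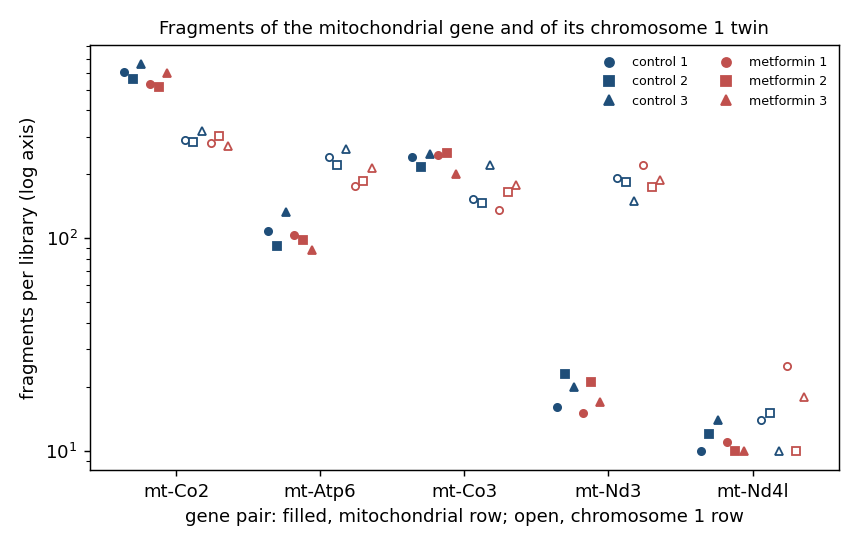
Fragments per library on a log axis for the 5 wholly copied mRNAs that have a chromosome 1 twin; filled points are the mitochondrial row and open points the chromosome 1 row, blue for control and red for metformin. The twin is lower for mt-Co2 and mt-Co3, higher for mt-Atp6 and about 10-fold higher for mt-Nd3, and the ranges meet for mt-Nd4l.

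The 22 tRNAs, of 59 to 75 bases, carry amino acids to the mitochondrial ribosome. The libraries were made with an mRNA kit, and 1 fragment on a tRNA was worth 0.95 to 1.264 FPKM. Of these genes, 20 were listed at 0 in all 6 libraries, which allows up to 2.85 to 3.793 FPKM in a library (3 fragments, counting error only). Those above 0 were mt-Tp and mt-Tc, both on the minus strand and both outside the chromosome 1 copy. They are printed here 5′ to 3′ in the direction of the tRNA beside 3 tRNAs listed at 0, mt-Tf (phenylalanine), mt-Tq (glutamine) and mt-Ts1 (serine), with the anticodon in capitals.
mt-Tp, proline, positions 15356 to 15422: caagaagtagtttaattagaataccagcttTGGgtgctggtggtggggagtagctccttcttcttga
mt-Tc, cysteine, positions 5192 to 5257: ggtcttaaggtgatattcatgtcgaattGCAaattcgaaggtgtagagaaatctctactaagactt
mt-Tf, positions 1 to 68: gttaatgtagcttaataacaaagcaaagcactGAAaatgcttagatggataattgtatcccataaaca
mt-Tq, positions 3772 to 3842: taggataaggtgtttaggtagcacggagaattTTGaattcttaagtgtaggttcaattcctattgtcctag
mt-Ts1, positions 6870 to 6938: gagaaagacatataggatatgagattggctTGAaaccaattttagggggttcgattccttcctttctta

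The tRNA mt-Tp stood at 1147.95, 1051.39 and 1086.6 FPKM in the control libraries and 1068.76, 1104.42 and 1199.21 FPKM in the metformin libraries, from 972 to 1109 fragments each. Its FPKM was as high as that of an mRNA, although no other tRNA reached 10 FPKM. In fragments, over its 67 bases, it was below mt-Nd6, which had 5805 to 7559 per library. It borders the control region of the genome, with 877 bases free of any annotated gene on its right side, the longest free stretch of the genome. The gene mt-Tc has 32 free bases on its left, between mt-Tn and mt-Tc, where the light strand begins its replication. Their sequence on the plus strand is shown because it is the only other free flank of more than 5 bases beside a tRNA.
between mt-Tn and mt-Tc, positions 5160 to 5191: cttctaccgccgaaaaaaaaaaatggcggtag
Free flanks did not separate all tRNAs listed at 0 from those above 0. Of the 20 listed at 0, 19 have at most 5 free bases on either side when the genome is read as a line, but mt-Tn has the same 32 bases, mt-Tf has the same 877 bases when the genome is read as a circle, and 5 minus-strand tRNAs have a flank of 1175 to 6613 bases free of genes of their own strand. Exact matches elsewhere took 0% of the 50-base windows of mt-Tp and 17.6% of those of mt-Tc. Among tRNAs listed at 0 they took 100% in mt-Tn and 0% in mt-Tf and mt-Tv. How the table counted fragments that overlap several genes is not given in the sources used here, and its part in these zeros was not tested.

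On the whole, the mitochondrial genome took a slightly smaller share of the libraries after metformin, with groups that overlapped. Its share of the summed FPKM was 6.495%, 6.387% and 6.358% in control and 6.416%, 6.249% and 6.242% in metformin libraries, or 6.413% ± 0.0723 and 6.302% ± 0.0981 (SD, n = 3 each). As a share of mapped fragments it was 2.379% ± 0.0153 and 2.347% ± 0.0465. Metformin replicate 1 lay within the control range on the first measure and above it on the second, and the other metformin libraries lay below it on both.

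By class, the mRNAs took 5.409% of the summed FPKM in control and 5.307% in metformin libraries, the rRNAs 0.6599% and 0.642%, and the tRNAs 0.3441% and 0.3531%. By strand, the plus strand took 5.792% and 5.669% and the minus strand 0.621% and 0.633%. The groups overlapped in each of these measures. Within a library, the ratio of rRNA to mRNA was 0.122 ± 0.00136 in control and 0.121 ± 0.00491 in metformin libraries, and that of minus to plus strand 0.107 ± 0.00329 and 0.112 ± 0.003 (SD, n = 3 each). By complex, the summed mRNAs of complex I stood at 9365 and 9159 FPKM, complex III at 2490 and 2377, complex IV at 5369 and 5417 and complex V at 14.11 and 13.46 FPKM, again with overlap. Wholly inside the chromosome 1 copy lie both complex V mRNAs, mt-Co2 and mt-Co3 of complex IV, and mt-Nd3 and mt-Nd4l of complex I. The complex IV sum was mostly mt-Co1, at 5282 and 5338 FPKM. The part of the copy in the differences between complexes was not tested.

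Gene by gene, no mitochondrial transcript passed the test between metformin and control. With limma on log2(FPKM + 1) and Benjamini-Hochberg adjustment over 10661 genes, 0 of the 17 members tested had an adjusted p under 0.05, where 3 genes of the whole table did (0.0281%). The 17 are the members above 0, all of which also passed the filter of a mean of at least 1 FPKM. At an unadjusted p under 0.05, 4 of the 17 were past the threshold, beside 1156 of all genes tested (10.8%): mt-Nd1, mt-Nd2 and mt-Co2 were lower and mt-Tc was higher. The median difference over the 17 was -0.04 on the log2 scale, with 6 higher and 11 lower in mean, and 0.00 over all genes tested, with 5580 higher and 5081 lower. Fold changes on this scale understate the change of low genes.

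Groups without overlap were found for mt-Nd1 and mt-Nd2, which were lower in metformin libraries (2 of 17, beside 8.1% of all genes tested), and for mt-Tc, which was higher (1 of 17, beside 8.89%). For mt-Nd1 the control libraries stood at 4614.61, 4620.88 and 4576.37 FPKM and the metformin libraries at 4536.65, 4510.49 and 4456.92. The means were 4604 ± 24.1 and 4501 ± 40.6 (SD, n = 3 each), a difference of -0.03 ± 0.01 (SE, log2 scale) with an adjusted p of 0.451 in limma. All metformin libraries were below all control libraries, by a change of -2.23% in the mean.

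For mt-Nd2 the control libraries stood at 1776.82, 1772.29 and 1757.63 FPKM and the metformin libraries at 1754.7, 1639.12 and 1601.3. The means were 1769 ± 10.0 and 1665 ± 79.9 (SD, n = 3 each), a difference of -0.09 ± 0.03 (SE, log2 scale) with an adjusted p of 0.409 in limma. Metformin replicate 1 was just below the lowest control library, and the other metformin libraries were well below. The neighbouring genes of complex I read from the same strand, mt-Nd1 and mt-Nd2, were thus both lower in mean, whereas mt-Co1, which follows them on the map, was not. Lower means were not particular to complex I. The difference was -0.0325 for mt-Nd1, beside -0.0314 for mt-Rnr1, -0.0431 for mt-Rnr2 and -0.0671 for mt-Cytb. The complex I genes mt-Nd5 and mt-Nd6 stood at 0.006 and 0.0122 (log2 scale).

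The levels of mt-Co1 were 5257.56, 5261.15 and 5327.43 FPKM in control and 5333.96, 5325.91 and 5353.51 in metformin libraries, groups that overlapped. The difference was 0.02 on the log2 scale, with a 95% interval of -0.01 to 0.04 and an adjusted p of 0.699 in limma. It was also the mRNA with the smallest spread between metformin libraries, a coefficient of variation of 0.266%, about that of counting alone (0.295%). In control libraries it was 0.745%, against 0.299% from counting.

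The cytochrome b gene mt-Cytb stood at 2497.22, 2543.88 and 2428.45 FPKM in control and at 2472.53, 2307.16 and 2351.9 FPKM in metformin libraries. Metformin replicate 1 was within the control range and the others were below it, with a difference of -0.07 (95% interval -0.1357 to 0.0015, log2 scale) and an adjusted p of 0.471 in limma. The complex IV gene mt-Co2, inside the copy, stood at 65.66, 59.55 and 69.01 FPKM in control and at 55.1, 53.99 and 63.23 FPKM in metformin libraries. Its groups overlapped, with a difference of -0.17 (95% interval -0.3406 to -0.0008) and an adjusted p of 0.458 in limma. Counting alone gave it a coefficient of variation of 4.06% in control libraries, where 7.41% was observed.

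Toward the end of the map, the complex I genes mt-Nd4, mt-Nd5 and mt-Nd6 shared a pattern across libraries rather than a difference between groups. The levels of mt-Nd4 were 784.49, 751.33 and 726.31 FPKM in control and 794.1, 707.06 and 707.15 in metformin libraries. Those of mt-Nd5 were 1383.54, 1350.03 and 1312.44 FPKM in control and 1459.85, 1303.55 and 1304.42 in metformin libraries. Those of mt-Nd6, on the opposite strand, were 909.58, 886.7 and 850.46 FPKM and 1037.73, 836.56 and 810.35 FPKM. Metformin replicate 1 was the highest library and control replicate 1 the second for all 3 genes.

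The spread of mt-Nd6 between metformin libraries, a coefficient of variation of 13.9% against 1.24% from counting, was the widest among members above 100 FPKM. The differences between groups were -0.04 for mt-Nd4, 0.01 for mt-Nd5 and 0.01 for mt-Nd6, with adjusted p-values of 0.829, 0.979 and 0.977 in limma. The sign for mt-Nd5 and mt-Nd6 rested on metformin replicate 1, without which they were -0.05 and -0.10. The difference for mt-Nd4 was -0.0919 without that library, and -0.0073, -0.0082 and -0.0083 without control replicate 1, metformin replicate 2 and metformin replicate 3. Whether fragments were assigned by strand is not given in the sources used here, and without it those of a gene and of RNA from its opposite strand cannot be told apart. This bears on mt-Nd6, mt-Tp and mt-Tc in particular.

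The rRNA mt-Rnr1 stood at 1439.2, 1417.34 and 1409.56 FPKM in control and at 1360.03, 1419.27 and 1395.51 FPKM in metformin libraries, with a difference of -0.03 and an adjusted p of 0.596 in limma. The rRNA mt-Rnr2 stood at 692.01, 664.53 and 685.68 FPKM and at 658.77, 664.78 and 658.14 FPKM, with a difference of -0.04 and an adjusted p of 0.478 in limma. Both groups overlapped, for mt-Rnr2 only through control replicate 2 and metformin replicate 2, and the ratio of mt-Rnr2 to mt-Rnr1 was 0.479 ± 0.00899 in control and 0.475 ± 0.00845 in metformin libraries (SD, n = 3 each). As a mark of RNA without a poly(A) tail, 10 nuclear RNAs such as Rmrp, the RNA of RNase MRP, and Rn7sk, a regulator of transcription elongation, were looked up by position. Their 13 rows stood at 0 to 2.85 FPKM, with 10 rows below 1 FPKM in all libraries, far below either mitochondrial rRNA. Rmrp, Terc and Rnu11 are each listed in overlapping rows. The part of fragments that overlap several rows or match several places in these low values was not tested. Rn7sk was at 2.48, 2.85 and 2.59 FPKM in control and 0.86, 2.59 and 1.31 in metformin libraries.

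The cysteine tRNA mt-Tc had the largest difference of all members, 1.40 ± 0.19 on the log2 scale (SE), at very low level. It stood at 1.13, 1.1 and 1.08 FPKM in control and at 3.24, 6.51 and 4.39 FPKM in metformin libraries. These values are 1, 1 and 1 fragments against 3, 6 and 4, a ratio of 4.27 per mapped fragment with an exact 95% interval of 1.17 to 23.4 that covers counting error only. The control libraries had a coefficient of variation of 2.281%, where counting alone gives 100%. The SE above therefore does not hold the full error of counting. Each metformin value exceeded each control value, and the adjusted p was 0.201 in limma (0.0689 to 0.462 over the alternatives tried).

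The remaining genes, all inside the copy, rested on few fragments and had wide intervals. The complex V genes mt-Atp8 and mt-Atp6 stood at 2.25 and 11.86 FPKM in control and 3.283 and 10.18 in metformin libraries, with 3 to 12 fragments per library for mt-Atp8. The complex I genes mt-Nd3 and mt-Nd4l stood at 4.11 and 2.937 FPKM in control and 3.643 and 2.497 in metformin libraries, and mt-Co3 at 21.93 and 21.31. All 5 overlapped between groups, with 95% intervals on the log2 scale as wide as -0.17 to 1.05 for mt-Atp8 and adjusted p-values of 0.539 to 0.892 in limma. Their chromosome 1 twins were not called either. For the twin of mt-Atp6, alone among the 7 chromosome 1 rows, the groups did not overlap, at 25.96 FPKM in control and 20.33 in metformin libraries (adjusted p = 0.338 in limma). Of all genes tested, 8.1% were lower without overlap. No base of mt-Atp6 differs from the copy, so fragments inside this gene and its twin cannot be told apart by sequence.

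**Figure D4:**
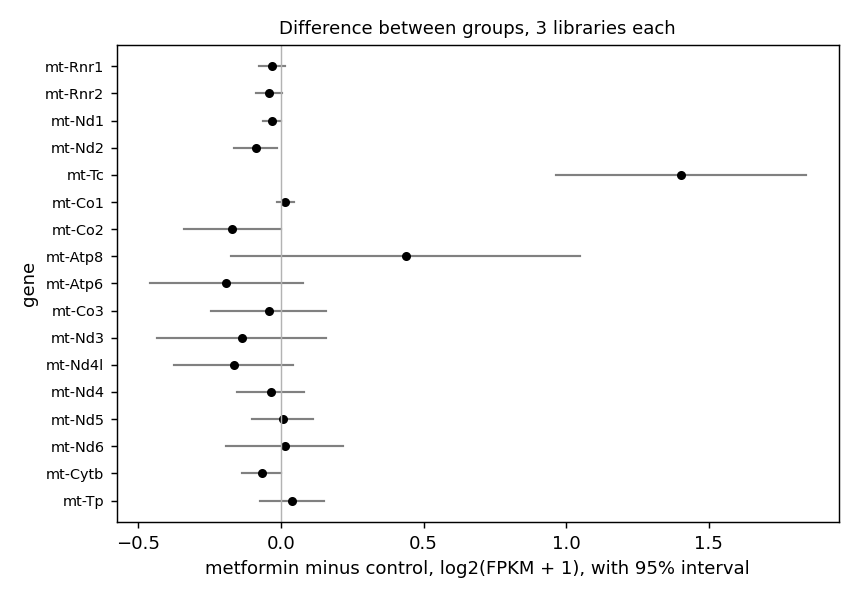
Difference between metformin and control on the scale of log2(FPKM + 1) for the 17 members above 0, in map order; points are limma's estimates and lines their 95% intervals, unadjusted, from 3 libraries per group. All members above 100 FPKM lie between -0.09 and 0.04, and mt-Tc lies at 1.40.

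Ratios between genes within a library do not depend on its scaling, and were described after the values had been seen. Of 9 such ratios, 3 had groups without overlap and 6 overlapped. The share without overlap among ratios of other genes was not determined, so this count has no background. The ratio of mt-Nd1 to mt-Co1 was 0.872 ± 0.011 in control and 0.843 ± 0.00952 in metformin libraries, and that of mt-Nd2 to mt-Co1 was 0.335 ± 0.00436 and 0.312 ± 0.0154 (SD, n = 3 each). In both the groups did not overlap, with metformin lower. These ratios share mt-Co1 as divisor, and mt-Nd1 and mt-Nd2 were themselves without overlap, so they are not separate results. The ratio of mt-Cytb to mt-Co1 was 0.471 ± 0.0142 and 0.445 ± 0.0161, with overlap. The ratio of mt-Nd5 to mt-Nd4 was 1.79 ± 0.0227 and 1.84 ± 0.00336, with metformin higher and no overlap. That of mt-Nd6 to mt-Nd5, which crosses the strands, was 0.654 ± 0.00527 and 0.658 ± 0.0469, with metformin replicate 1 at 0.711 as the highest library and the other metformin libraries below all control libraries. The remaining ratios also overlapped, mt-Nd4 to mt-Co1 at 0.143 ± 0.00644 and 0.138 ± 0.0095, mt-Nd6 to mt-Cytb at 0.354 ± 0.00861 and 0.376 ± 0.0392, and mt-Tp to mt-Cytb at 0.44 ± 0.024 and 0.474 ± 0.0391.

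**Figure D5:**
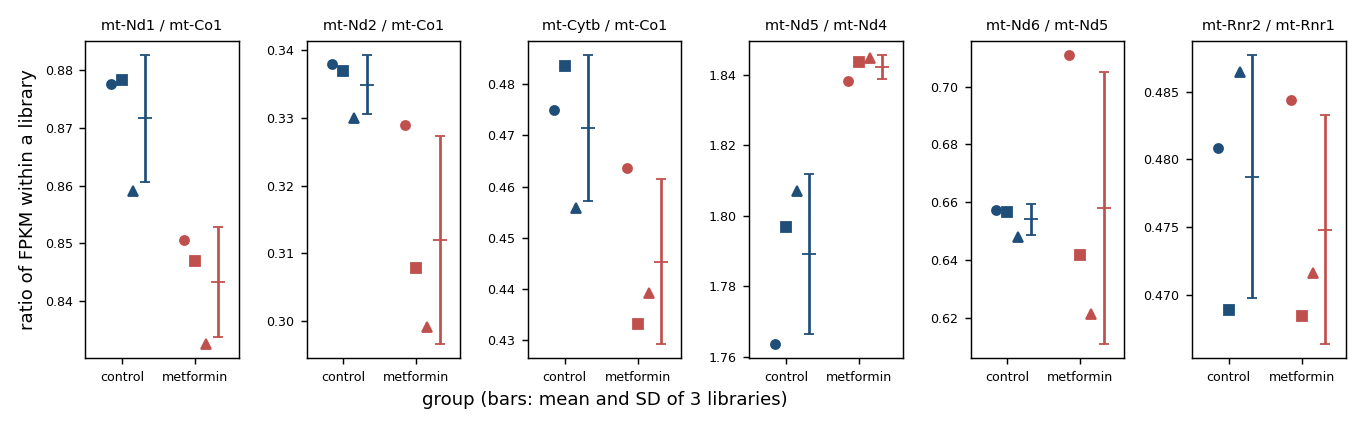
Ratio of FPKM between mitochondrial genes within each library, for control (blue) and metformin (red), with the mean and SD of 3 libraries beside the points; each axis has its own range and does not start at 0. The groups separate for mt-Nd1 to mt-Co1, mt-Nd2 to mt-Co1 and mt-Nd5 to mt-Nd4, and metformin replicate 1 stands highest for mt-Nd6 to mt-Nd5.

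The nuclear genes that serve the mitochondrial genome were described from 6 lists of 80 genes, of which 79 were matched and 77 tested. None had an adjusted p under 0.05 in limma, 10 had an unadjusted p under 0.05 (5 higher and 5 lower in metformin), beside 10.8% of all genes tested, and the median difference was 0.00 on the log2 scale. Groups did not overlap for 6 genes that were higher and 7 that were lower, beside 8.89% and 8.1% of all genes tested. The genes named below without overlap are of these 13. By list, the unadjusted threshold was passed by 1 of 9 genes of mtDNA transcription, 3 of 20 of RNA processing and stability, 1 of 15 of rRNA and tRNA modification, 0 of 13 of mtDNA replication, 2 of 8 nuclear regulators and 3 of 12 translation factors.

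Among genes of transcription, Tefm, the elongation factor of the mitochondrial polymerase, stood at 11.21, 12.42 and 11.11 FPKM in control and 12.66, 12.76 and 13.8 in metformin libraries, with no overlap (adjusted p = 0.379 in limma). Tfam, which packages mtDNA and starts its transcription, stood at 21.3 and 22.05 FPKM in mean, and the termination factor family members Mterf1a and Mterf2 at 3.673 and 3.407 and at 4.33 and 3.807 FPKM. These last 3 overlapped between groups.

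Among genes of RNA processing, Slirp, which with Lrpprc keeps mitochondrial mRNAs stable, stood at 11.87, 12.3 and 11.82 FPKM in control and 11.16, 10.51 and 10.81 in metformin libraries, without overlap (adjusted p = 0.346 in limma). Grsf1, a protein of the RNA granules where processing takes place, was 81.79 and 78.48 FPKM in mean, Rexo2, a nuclease that clears short RNA, 41.5 and 44.21 FPKM, and Pde12, which removes poly(A) tails, 10.81 and 10.21 FPKM. None of these 3 overlapped between groups, and none was called. Trnt1, which adds the CCA end to tRNAs, stood at 46.2 ± 1.3 and 42.89 ± 0.907 FPKM (SD, n = 3 each), with no overlap (adjusted p = 0.35 in limma), whereas the modification genes Mrm3, Trmu and Cdk5rap1 overlapped.

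Of the replication genes, the helicase Twnk was 26.24 and 27.29 FPKM and the single-strand binding protein Ssbp1 8.193 and 7.677 FPKM in mean, both without overlap, while Rnaseh1 and Top3a overlapped. The lowest adjusted p of all 6 lists was that of Myc, a broad activator of growth genes, at 170.95, 173.09 and 176.33 FPKM in control and 189.7, 185.82 and 188.95 in metformin libraries (adjusted p = 0.283 in limma). Gabpa, a factor that drives many nuclear genes of mitochondria, was 21.61 and 20.23 FPKM without overlap, and Gabpb1 and Nrf1 overlapped. Of the translation factors, Tsfm (21.28 and 22.71 FPKM) and Mtrf1 (3.31 and 3.973 FPKM) were higher and Mtif2 (9.897 and 9.177 FPKM) lower in mean without overlap, Mtfmt overlapped, and none was called.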

How the data were processed

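The authors sequenced RNA in 3 control and 3 metformin libraries and deposited FPKM values for 55401 Ensembl genes with GRCm38 positions. The submitters' processing notes name HISAT2, DESeq2 and the mm9 build without a role, and mm9 is not the build of the table. The labels name a stranded mRNA kit and the paper's methods another mRNA kit. The strand setting and the handling of fragments with several matches are not given in the sources used here. No column of per-library values was unused (0).

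Members were the rows on chromosome MT, and members and gene lists were chosen with earlier results of these data known. All mitochondrial mRNAs and rRNAs, tRNAs of at least 10 FPKM with the highest and lowest, and up to 4 genes per nuclear list (called, then smallest p) were named. The tRNAs listed at 0 tie, and 3 were shown. A gene outside this rule was picked with its values in view.

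Values were tested as log2(FPKM + 1), with a pseudocount of 1, on the 10661 genes that averaged 1 FPKM or more, by limma 3.58.1 in R 4.3.3 (two-sided, lmFit, eBayes with mean trend, Benjamini-Hochberg over all tested genes, threshold 0.05, no replicate block). Sums and ratios were described without a test, since 3 libraries against 3 cannot give an exact permutation p under 0.1. The fit was tested on simulated data. Same-numbered libraries of the groups had correlations of their deviations of -0.0317, 0.0181 and 0.0479, so the numbers were not taken as pairs. Depth was the middle of the narrow range of mapped fragments (4 to 18 neighbouring whole numbers per library) between 12000000 and 16000000 that made all members above 0 whole numbers of fragments within the rounding of 0.005 FPKM, and it also gave whole numbers for 100% of 406 to 446 other rows of up to 400 bases per library. Poisson intervals, the exact binomial interval for mt-Tc and floors (3 fragments) cover counting error only. Nuclear copies were found with blastn 2.17.0 (word size 28) on NCBIM37 with GENCODE M1, and no position was converted between builds. Non-polyadenylated RNAs were matched to RefSeq GRCm38.p6 positions within 30 bases. Symbols came from GENCODE M1 (32589 rows matched). Alternatives were a pseudocount of 0.1, no filter, a mean of at least 10 FPKM, TPM, the nuclear sum, quantile normalization, median centring, no trend, the replicate block, each library left out and unadjusted p. Figures were drawn with matplotlib 3.10.9 in Python 3.11.15.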

Additional observations from a re-analysis of the deposited data

How the results depend on the processing

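Under 15 alternatives, 590 of 599 values of the 41 named genes kept their direction and their side of the threshold, and 0 of the 17 mitochondrial genes and 0 of the 77 listed nuclear genes had an adjusted p under 0.05 in limma. At an unadjusted p under 0.05 the counts were 4 mitochondrial genes, 10 listed genes and 1156 of all genes, against 3 of all genes after adjustment. Without a filter on low values, 7 of all genes were called. With the replicate block, 0 mitochondrial genes and 2 of all genes were called, and the block changed no call of a member. Direction turned for mt-Nd5 when rescaled to the nuclear sum (-0.0003), and with a library left out for genes near 0. These ranged from -0.103 to 0.0488 for mt-Co3 (higher only without metformin replicate 3), from -0.0482 to 0.0334 for mt-Nd5 and from -0.0990 to 0.0792 for mt-Nd6 (both lower without control replicate 3 or metformin replicate 1), and from -0.0108 to 0.0722 for mt-Tp (lower only without metformin replicate 3). Quantile normalization, which gives the highest ranks the same values in each library, set mt-Nd2 and mt-Cytb to 0.00, which has no direction. For mt-Tc, the difference of 1.40 became 1.94 with a pseudocount of 0.1 and 1.1846 to 1.5969 with a library left out. The difference in the mitochondrial share of FPKM was -0.168 to -0.0701 percentage points with a library left out, against -0.111. It was -0.104 with the mitochondrial rRNAs and tRNAs taken out of the share and of the sum. At this depth, genes of a few fragments (mt-Tc, mt-Atp8, mt-Nd4l) cannot show a change under the width of their intervals.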
